A study of Mus musculus with 4 samples.

Results

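Type B intercalated cells were represented by 2 of the 23 clusters of kidney cortex nuclei. They were chosen by their level of Slc26a4, the gene of pendrin, as the 2 clusters among those numbered 13 to 22 with the highest mean of their 4 mouse columns. They carry the study's names IC-B-1 (cluster 15) and IC-B-2 (cluster 19), assigned by the place of each name in the study's marker table. The marker genes given there for these clusters were not used here, so which of the 2 bears which name is less sure than that both are type B. Single nucleus RNA sequencing was performed on 4 male mice of a mixed strain, 1 mouse in each of 4 conditions. Control mice carried the tetracycline-responsive human KLF6 transgene (TRE-hKLF6) without an activator. hKLF6OE mice carried it together with the activator rtTA under the CAG promoter, which is active in most cell types, and overexpressed human KLF6 globally. All mice of both genotypes received a diet with 200 mg/kg doxycycline for 1 week. The control_AAI and hKLF6OE_AAI mice received 1 injection of 2 mg/kg aristolochic acid I (AAI), a plant nephrotoxin that damages DNA in the proximal tubule, and kidneys were taken 24 hours later. For the other mice the labels give no treatment and the methods give DMSO vehicle. The labels give no age. The table had no row for the human transgene, so its expression could not be checked.

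Intercalated cells are the acid-base cells of the connecting tubule and collecting duct, where they lie among principal cells. Type A cells secrete protons through an apical V-type proton pump and return bicarbonate to the blood through the exchanger Slc4a1. Type B cells secrete bicarbonate and absorb chloride through the apical exchanger pendrin, and carry the exchanger Slc4a9 on the basolateral side. Foxi1, a forkhead transcription factor, is required for both types and drives genes of pump subunits and exchangers.

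Values are mean expression per 10000 counts of a nucleus, averaged over the nuclei of 1 cluster in 1 mouse, and are called levels. Series of 4 levels are given in the order control, control_AAI, hKLF6OE, hKLF6OE_AAI. With 1 mouse per condition there is no spread between mice of a group, so no SD and no test are given. The clusters were also made from these same levels, so differences between clusters are descriptions. A gene was called higher or lower when the difference of log2(level + 1) was at least 0.5 in the same direction in each mouse (between clusters) or in both independent pairs of mice (AAI or genotype), among genes at 0.5 or more on the higher side each time. The number of nuclei behind each level is not in the table, so the depth behind each level is unknown. The paper gives only a range of reads per cell, not split by cluster. An average also cannot tell fewer expressing nuclei from less RNA in each. Of the gene rows, 36.8 to 41.7% were at 0 in the IC-B-1 columns and 46.3 to 53% in the IC-B-2 columns, against 38.0 to 43.0% in the Slc4a1-highest cluster. The smallest level above 0 was 0.00583 to 0.0221 in IC-B-1 and 0.0213 to 0.0566 in IC-B-2.

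The promoters of Slc26a4 and of the pump subunit genes Atp6v1g3 and Atp6v1c2 are shown because these 3 genes are among the 10 leading genes shared by both type B clusters and had a single promoter in the table, and because Foxi1 binds forkhead motifs. They are RefSeq promoters (250 bases before to 50 after the start, GRCm38.p6), 5′ to 3′ on the strand of the gene, with the forkhead core TGTTTNC, searched on both strands, in capitals. Slc26a4 lies on the minus strand (chr12:31559935-31560234) and Atp6v1g3 on the plus strand (chr1:138273488-138273787). Atp6v1c2 lies on the minus strand (chr12:17324681-17324980).
Slc26a4: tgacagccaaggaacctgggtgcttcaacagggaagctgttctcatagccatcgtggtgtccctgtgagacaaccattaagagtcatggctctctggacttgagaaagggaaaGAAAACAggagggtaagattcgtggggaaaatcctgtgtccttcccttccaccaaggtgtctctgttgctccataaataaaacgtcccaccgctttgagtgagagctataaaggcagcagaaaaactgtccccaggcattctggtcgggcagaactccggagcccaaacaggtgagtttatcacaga
Atp6v1g3: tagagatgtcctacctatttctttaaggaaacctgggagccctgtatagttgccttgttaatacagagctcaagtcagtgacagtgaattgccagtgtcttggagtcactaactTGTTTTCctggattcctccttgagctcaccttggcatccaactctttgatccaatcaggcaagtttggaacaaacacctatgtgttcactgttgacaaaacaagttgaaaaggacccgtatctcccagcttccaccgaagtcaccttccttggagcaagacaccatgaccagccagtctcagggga
Atp6v1c2: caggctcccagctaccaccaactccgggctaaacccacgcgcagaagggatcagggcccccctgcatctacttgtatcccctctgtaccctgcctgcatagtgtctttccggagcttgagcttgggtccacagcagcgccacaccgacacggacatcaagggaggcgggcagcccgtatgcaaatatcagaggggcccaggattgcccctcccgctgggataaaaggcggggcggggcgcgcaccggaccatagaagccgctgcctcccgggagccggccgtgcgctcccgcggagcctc
Slc26a4 held 1 match, on the strand opposite to the gene, Atp6v1g3 held 1 on its own strand, and Atp6v1c2 held 0. Among all 32851 promoters of this length 20.5% held the motif. Of the 41 genes called higher in both type B clusters than in every cluster outside the intercalated ones, 30 were matched to 46 promoters, of which 17.4% held it. The share was thus close to that of all promoters.

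Slc26a4, which chose the clusters, was at 63.6, 85.0, 51.6 and 86.0 in IC-B-1 and at 67.9, 93.2, 87.1 and 79.0 in IC-B-2. The next cluster in the rule, cluster 22, averaged 1.43, with 0 in both mice of control genotype and 5.22 in hKLF6OE_AAI. The Slc4a1-highest cluster (cluster 18, the study's IC-A) averaged 0.766. The gene lies on chr12:31519814-31560055 (GRCm38.p6). Slc4a9 averaged 22 in IC-B-1, 37 in IC-B-2 and 6.59 in IC-A. Insrr, an insulin receptor-related kinase that senses alkaline pH (chr3:87796908-87816101), averaged 7.40, 6.41 and 0.229.

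Markers of intercalated cells of both types were present in each of the 3 clusters. Foxi1 was at 0.944, 1.01, 0.455 and 0.764 in IC-B-1 and at 1.38, 2.20, 1.26 and 1.28 in IC-B-2, while the mean of the 20 clusters outside the intercalated ones was at most 0.0369. Slc4a1 was near 0 in both type B clusters, with a highest level of 0.0502 in IC-B-1 and 0.161 in IC-B-2, against 0.98 to 2.62 in IC-A. Aqp6 and Slc26a7, further type A genes, averaged 0.177 and 0.0017 in IC-B-1, 0.110 and 0.0219 in IC-B-2, and 3.45 and 1.20 in IC-A. Aqp2, the water channel of principal cells, averaged 0.328 and 0.242 in the type B clusters against 6.86 in the principal cell cluster. Both clusters thus held Slc26a4, Slc4a9 and Insrr at high levels, with Slc4a1, Aqp6, Slc26a7 and Aqp2 near 0.

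The levels of 4 listed genes departed from their lists. Kit, a receptor tyrosine kinase listed as a type A gene, was at 3.15, 3.11, 3.01 and 2.83 in IC-B-2, at 0.0492 to 0.13 in IC-B-1, and at 6.36 to 9.55 in IC-A. Oxgr1, the 2-oxoglutarate receptor and listed as a type B gene, was at 3.56, 3.57, 4.48 and 3.47 in IC-B-1, at 0.0367, 0.153, 0.652 and 0.372 in IC-B-2, and at 3.69 to 5.43 in IC-A. Hmx2, a homeobox factor placed on the type A list, was at 1.58 to 1.75 in IC-B-1 and 3.24 to 5.01 in IC-B-2, but at 0 to 0.0958 in IC-A. The Notch ligand Jag1, on the same list, was at 1.95 to 2.34 in IC-B-1, 1.16 to 3.36 in IC-B-2 and at most 0.433 in IC-A.

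**Figure D1:**
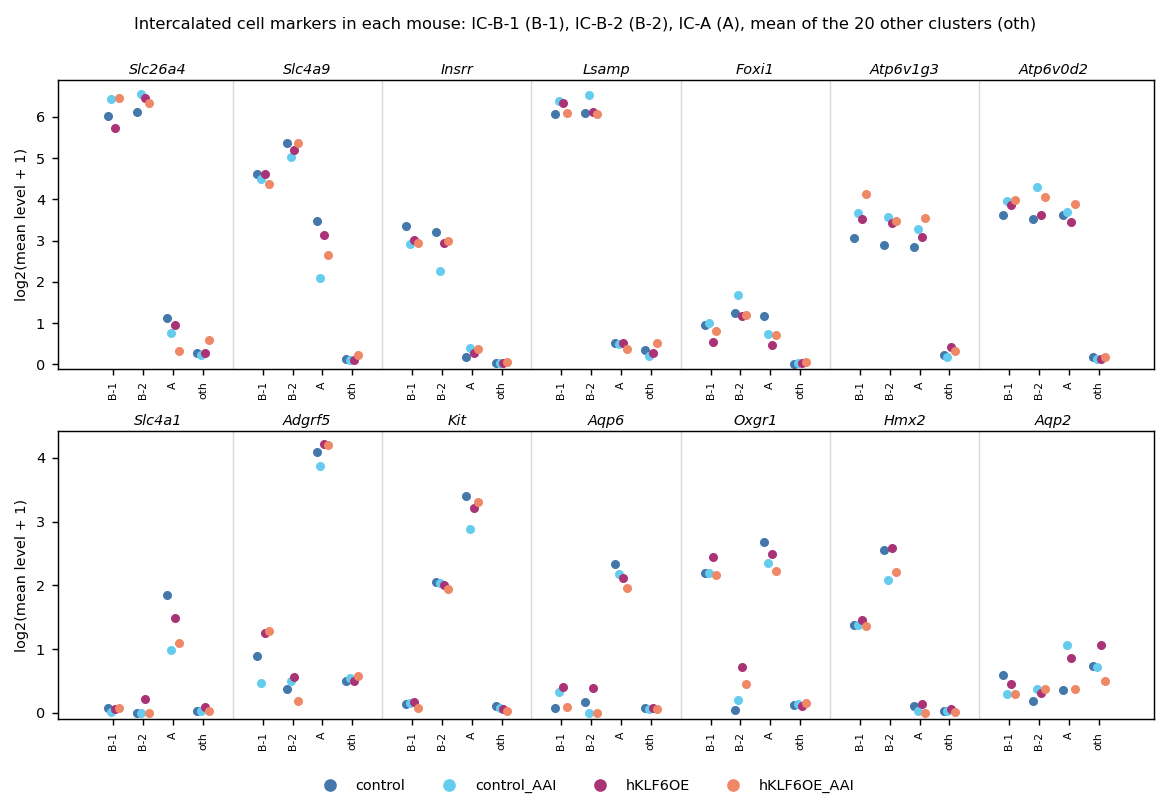
Level of 14 marker genes as log2(mean level + 1), 1 point per mouse, in IC-B-1, IC-B-2, IC-A and the unweighted mean of the 20 other clusters. Slc26a4, Insrr and Lsamp separate both type B clusters from IC-A in each mouse, Kit is shared by IC-B-2 and IC-A, and Oxgr1 by IC-B-1 and IC-A.

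The genes the type B clusters shared were first compared with the highest of the 20 clusters outside the intercalated ones. Of 7019 genes passing the filter, 41 (0.584%) were higher in both clusters in each mouse, and 2302 (32.8%) were lower, since each gene was set against its highest cluster elsewhere. After centring on the median of all genes these counts were 117 and 777. Slc26a4 led the higher genes by the choice of the clusters. Lsamp, a cell adhesion molecule of the immunoglobulin superfamily (chr16:39984254-42181679), was at 66.1, 82.4, 79.6 and 67.5 in IC-B-1 and 67.4, 90.9, 68.3 and 66 in IC-B-2. In IC-A it did not exceed 0.442. The other leading shared genes, after Slc4a9 and Insrr, were Syn2, Rp1, Pde4b and the pump subunits Atp6v0d2, Atp6v1g3 and Atp6v1c2. Syn2, a synapsin, was at 6.37 to 8.65 in IC-B-1, 8.58 to 14.2 in IC-B-2 and 3.35 to 5.93 in IC-A. Pde4b, a cAMP phosphodiesterase, was at 21.4 to 32.0, 30.7 to 43.1 and 14.8 to 21.5. Both were thus also present in IC-A, whereas Rp1, a microtubule-associated protein, was at 5.97 to 6.61 in IC-B-1, 6.34 to 9.55 in IC-B-2 and 0.656 to 1.64 in IC-A. Of 9 passing genes on the list of markers of both intercalated types, 5 were among the 41, namely Atp6v1g3, Atp6v0d2, Atp6v1c2, Hepacam2 and Car12.

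The pattern of each gene over all 92 cluster and mouse columns was set beside that of Slc26a4, over 2144 genes at 0.5 or more in both type B clusters. The closest was Lsamp (Pearson r = 0.990 of log2(level + 1)), followed by Insrr (0.978), Rp1 (0.974), Chl1 (0.960), Tmem163 (0.956) and Hmx2 (0.945). Slc4a9 (0.932) and the calcium-permeable channel Trpc5 (0.924) were also among the first 10. The columns of 1 mouse share a library, and 8 of the 92 columns are those of the type B clusters, so r is given as a description.

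Subunits of the V-type proton pump were at like summed levels in both type B clusters. Of 23 subunit and accessory genes in the table, 17 passed the filter between IC-B-1 and IC-B-2 and none was called, against 1.75% of all genes called higher and 1.72% called lower, so a count of 0 is near that share. Their summed level was 80.4, 83.0, 87.5 and 88.8 in IC-B-1 and 74.4, 84.9, 84.1 and 73.7 in IC-B-2. The sum was 69.7 to 74.8 in IC-A and 18.9 to 23.6 in principal cells. Atp6v1c2 was the only subunit called against IC-A, with 9.98, 5.81, 8.78 and 7.60 in IC-B-1, 11, 7.86, 11.5 and 8.06 in IC-B-2, and 3.87 to 5.11 in IC-A. Atp6v0a4, the kidney a4 subunit, was at 15.3 to 18.9 in IC-B-1 and 9.76 to 13.3 in IC-B-2, a difference that stayed below the call in at least 1 mouse. Atp6v0d2, which joins the membrane part of the pump to its stalk, was at 11 to 14.9 in IC-B-1, 10.5 to 18.6 in IC-B-2 and 9.91 to 13.9 in IC-A, so that its ranges overlapped.

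**Figure D2:**
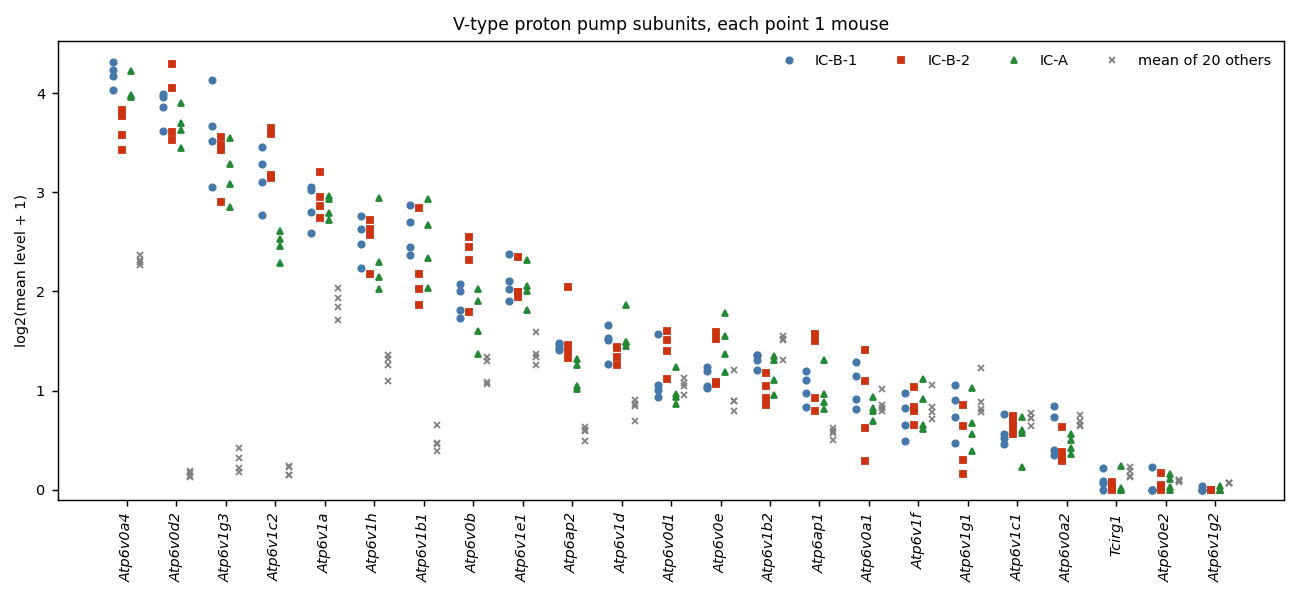
Level of 23 V-type proton pump genes as log2(mean level + 1), 1 point per mouse, in IC-B-1, IC-B-2, IC-A and the mean of the 20 other clusters. The subunits Atp6v0d2, Atp6v1g3 and Atp6v1c2 lie far above the other clusters, and Atp6v1c2, at 5.81 or more in both type B clusters and at most 5.11 in IC-A, is the only one called against IC-A.

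IC-B-1 and IC-B-2 were compared over 3493 passing genes, of which 61 were higher in IC-B-1 and 60 in IC-B-2. Malrd1, a gene with MAM and LDL receptor domains (chr2:15526479-16255557), was at 16.4, 26.7, 19.1 and 17.1 in IC-B-1 and at 0.461, 0.735, 0.494 and 0 in IC-B-2. Its levels in IC-A were 13.5, 12.7, 13.2 and 16.5, close to IC-B-1. Hs6st3, a heparan sulfate sulfotransferase, was at 7.39 to 13.8 in IC-B-1, at most 0.395 in IC-B-2 and at 6.84 to 14.9 in IC-A. Clnk, Trpm3, Rapgef4, Arhgap6 and Asb15 were likewise higher in IC-B-1 than in IC-B-2 and present in IC-A. Pclo was different, at 4.40 to 8.17 in IC-B-1, 1.43 to 2.04 in IC-B-2 and 0.863 to 1.82 in IC-A.

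The leading genes higher in IC-B-2 were lower in IC-A than in IC-B-2, apart from Kit. Kcnq3, a voltage-gated potassium channel subunit (chr15:65986374-66286636), was at 11, 7, 13.3 and 16.2 in IC-B-2, at most 0.134 in IC-B-1 and at most 0.0805 in IC-A. Plxna4, a semaphorin receptor, was at 17.7, 7.06, 15.4 and 9.72 in IC-B-2 and at most 0.668 in IC-B-1. The nuclear receptor Rorb was at 8.01 to 16.5 in IC-B-2, 0.268 to 0.659 in IC-B-1 and 1.11 to 3.61 in IC-A. The long noncoding RNA 4930469K13Rik was at 5.30 to 23.4 in IC-B-2 and at most 0.251 in IC-B-1. Sh2d4b, Slc9a9, Ror1, Plcb1 and Sobp completed the leading genes. For each called gene the level in IC-A was then set against the type B cluster where the gene was low. IC-A was also higher by 0.5 or more in each mouse for 33 of the 61 genes higher in IC-B-1 (54.1%), and for 2 of the 60 genes higher in IC-B-2 (3.33%). Over all passing genes these shares were 2.29% and 0.945%. The genes were chosen for a low level in that cluster, so the shares are descriptions.

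**Figure D3:**
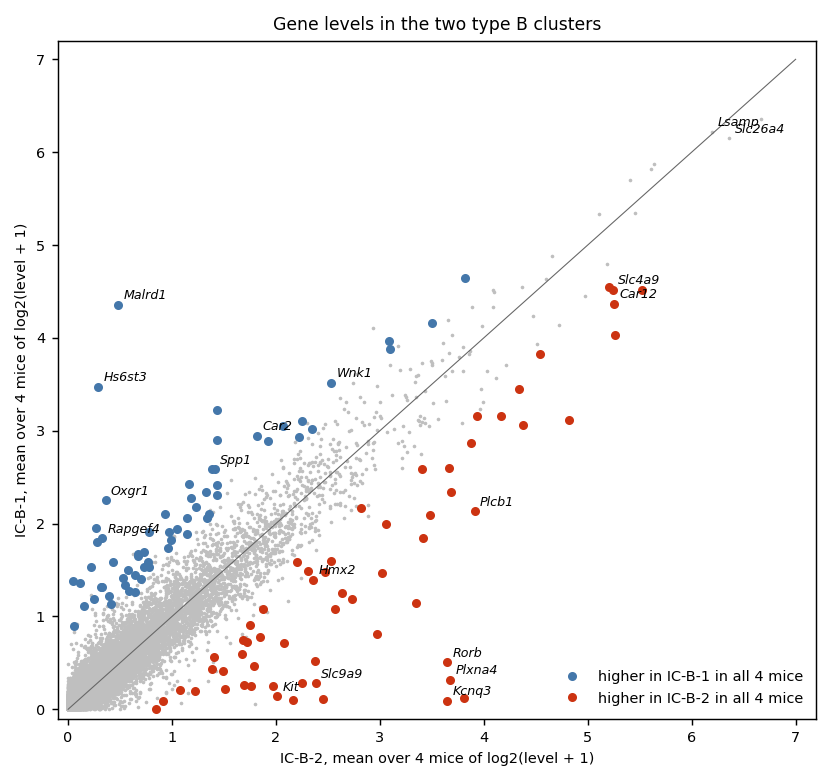
Each gene's level in IC-B-2 (horizontal) and IC-B-1 (vertical), as the mean over 4 mice of log2(level + 1), with the line of equality. Blue points are the 61 genes higher in IC-B-1 in each mouse and red points the 60 higher in IC-B-2; Malrd1 and Kcnq3 lie nearest opposite axes, while Slc26a4 and Lsamp lie on the line.

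Several genes of acid-base transport were called between the clusters, in either direction, while most on their lists were not. Car2, the cytosolic carbonic anhydrase, was at 6.83, 5.86, 5.52 and 9.13 in IC-B-1 and 2.32, 2.91, 2.74 and 2.16 in IC-B-2. Car12, a membrane-bound carbonic anhydrase, went the other way, at 20.8, 13.1, 34.6 and 15.7 in IC-B-1 and 40.3, 25.5, 51.3 and 36.2 in IC-B-2. Slc4a9 was higher in IC-B-2, at 40.1, 31.5, 35.8 and 40.5 against 23.4, 21.3, 23.4 and 19.8. The ammonia transporter Rhbg was at 1.15 to 1.48 in IC-B-1 and 0.104 to 0.464 in IC-B-2. Of the list of 12 type B genes, 9 passed, with Oxgr1 higher and Slc4a9 lower in IC-B-1, and of 5 passing carbonic anhydrase and bicarbonate sensing genes Car2 was higher and Car12 lower. Over all genes 1.75% were higher and 1.72% lower. The kinases Wnk1 and Wnk4, which regulate chloride transport, were both higher in IC-B-1, at 9.97 to 10.9 against 4.20 to 5.95 for Wnk1 and at 1.68 to 1.97 against 0.197 to 0.861 for Wnk4. They were the only 2 of 8 passing genes of the mineralocorticoid and WNK pathway that were called. None of the 14 passing proximal tubule markers was called, but 13, 14, 11 and 13 of them were higher in IC-B-1 in the 4 mice, with medians of 0.51, 0.51, 0.27 and 0.22 against 0.01, 0.02, 0.00 and 0.02 over all genes. Their part in the differences between the clusters was not tested. Spp1 was at 2.93 to 7.77 in IC-B-1 and 0.846 to 3.06 in IC-B-2, with 2.28 to 7.03 in the mean of the 20 other clusters. Klk1, a connecting tubule marker, was at 2.38 to 5.68 and 0.867 to 3.25, with 2.02 to 4.43 in that mean. The summed level of connecting and distal convoluted tubule markers was 17.5 to 31.5 in IC-B-1 and 9.06 to 21.6 in IC-B-2, and its part in these differences was not tested.

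Against IC-A, the mean of both type B clusters was higher for 92 of 3619 passing genes (2.54%) and lower for 76 (2.10%). Slc26a4 and Slc4a1, which chose the clusters, were among these by construction. Nbea, a scaffold protein of vesicle traffic, was at 13.1 to 19.9 in IC-B-1, 28.6 to 45.7 in IC-B-2 and 0.693 to 1.69 in IC-A. Tmem163, a zinc transporter, was at 7.09 to 9.53, 15.1 to 19.7 and 0.345 to 0.847. Kcnq3 and 4930469K13Rik were among the 10 leading genes of this comparison through IC-B-2 alone. With IC-B-1 alone, 47 genes were higher than IC-A, and 38 of these were among the 92. With IC-B-2 alone there were 118, and 84 of these were among the 92. Much of the higher set thus rested on IC-B-2 through the mean. Of the 76 lower genes, 50 were also lower with IC-B-1 alone and 68 with IC-B-2 alone.

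Lower than in IC-A was Adgrf5, an adhesion G protein-coupled receptor, at 0.383 to 1.44 in IC-B-1, 0.133 to 0.484 in IC-B-2 and 13.7 to 17.5 in IC-A. Defb1, a beta-defensin of epithelial defence, was at 1.40 to 3.03, 0.217 to 0.992 and 8.62 to 11. The calcitonin receptor Calcr was at most 0.0621 in the type B clusters and at 2.44 to 5.42 in IC-A. Dmrt2, a transcription factor, was at 0 in all 4 mice in IC-B-2 and in 3 of 4 in IC-B-1, and at 0.844 to 1.63 in IC-A. Of the 10 type A genes that passed, 7 were lower in the type B clusters and 2 were higher, Hmx2 and Jag1. Over all genes 2.10% were lower and 2.54% higher. Members such as Slc4a1 and Slc26a7 were below 0.5 in both type B clusters and passed the filter through IC-A, so they could have been called only lower. Hmx2 and Jag1 were below 0.5 in IC-A and could have been called only higher. The counts are therefore no support. The sodium channel subunit Scnn1b averaged 0.831 in IC-B-1, 0.463 in IC-B-2 and 2.65 in IC-A. The calcium exchanger Slc8a1 averaged 12.2, 7.15 and 31.5. Markers of the connecting and distal convoluted tubule summed to 23.1 to 78.6 in IC-A, a range that reaches above those of the type B clusters and overlaps that of IC-B-1, and their part was not tested.

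AAI was compared with no AAI in the control pair and in the hKLF6OE pair, which hold 4 different mice. IC-B-1 and IC-B-2 come from the same mice, so their values are given side by side. In IC-B-1, 35 of 4073 passing genes were higher in both pairs (0.859%) and 42 were lower (1.03%). In the same cluster 8 genes differed by 0.5 or more in opposite directions, against these 77. After centring on the median of all genes the split was 27 higher and 53 lower. In IC-B-2, 88 of 3980 were higher (2.21%), 107 lower (2.69%), and 88 went in opposite directions.

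On the list of type B genes, only Sctr was called with AAI. Slc26a4 differed by 0.41 and 0.73 (log2, control pair and hKLF6OE pair) in IC-B-1 and by 0.45 and -0.14 in IC-B-2, and was not called. Slc4a9 differed by -0.13 and -0.23 in IC-B-1 and by -0.34 and 0.17 in IC-B-2. Lsamp, Insrr and Foxi1 were not called in either cluster. Sctr, the secretin receptor (chr1:120006879-120063539), was the exception on the type B list, where 10 genes passed in IC-B-1 and 9 in IC-B-2. In IC-B-1 it was at 2.49 in control and 1.25 in hKLF6OE, against 0.0258 and 0.189 in the mice with AAI. In IC-B-2 it was at 1.75 and 0.722 without AAI and at 0 in both mice with AAI. IC-A showed 1.55 and 0.545 without AAI and 0.162 and 0.0955 with it, and the mean of the 20 other clusters stayed at or below 0.00606. In both type B clusters Sctr was below 0.5 with AAI and passed the filter through the mice without AAI. It could therefore have been called only lower, and the call is no support. Over all genes 1.03% were lower in IC-B-1 and 2.69% in IC-B-2. With 1 mouse per condition, levels with and without AAI did not overlap in any of the 3 intercalated clusters. The hKLF6OE mouse without AAI was lower than the control mouse in each of them.

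Other genes of the transport and cell fate lists were also called. Of 19 passing proton pump genes, 1 was higher in IC-B-1 and 1 lower in IC-B-2. Of the chloride, sodium and potassium list, 1 of 10 was lower in IC-B-1. In IC-B-2, 1 of 12 was higher and 2 lower. Of 5 carbonic anhydrase and bicarbonate sensing genes 1 was lower in IC-B-1, and of 14 cell fate regulators 1 was lower in IC-B-2. Over all genes 0.859% were higher and 1.03% lower in IC-B-1, and 2.21% and 2.69% in IC-B-2. Atp6v1g3 was higher with AAI in IC-B-1, from 7.29 to 11.7 in the control pair and from 10.5 to 16.5 in the hKLF6OE pair. In IC-B-2 it went from 6.48 to 10.8 and from 9.75 to 10.1. Car12 was lower with AAI in IC-B-1, from 20.8 to 13.1 and from 34.6 to 15.7, and in IC-B-2 the values were 40.3 to 25.5 and 51.3 to 36.2, where the second difference was -0.49 and just missed the call. The Na,K-ATPase modulator Fxyd2 was lower in both clusters, but its mean over the 20 other clusters also went from 7.56 to 5.10 and from 11.7 to 4.59. In IC-B-2, the proton pump accessory gene Atp6ap1 went from 1.83 to 0.731 and from 1.97 to 0.903 and the Notch target Hes1 from 1.90 to 1.01 and from 2.61 to 1.21. Neither was called in IC-B-1. The potassium channel Kcnj1 was higher in IC-B-2, from 0.136 to 0.754 and from 0.283 to 1.04. It was below 0.5 without AAI and passed the filter through the AAI mice, so it could have been called only higher. Whether the clusters differed in their change with AAI was not tested.

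Immediate early genes, which are induced quickly by many stimuli, included Egr1, Fos and Jun among the genes higher with AAI. Egr1 was at 0.419 and 2.02 in the control pair and at 0.171 and 4.44 in the hKLF6OE pair in IC-B-1, and at 1.30 and 2.76, and 0.324 and 2.64, in IC-B-2. Fos and Jun were called in IC-B-1, where Jun went from 0.243 to 1.05 and from 0.157 to 2.09. Of the 20 genes on this list in the table, 5 passed in IC-B-1 with 3 called higher, and 3 passed in IC-B-2 with 1 called higher, beside 0.859% and 2.21% of all genes. Members such as Egr1 and Jun in IC-B-1 were below 0.5 without AAI and passed the filter through the AAI mice, so they could have been called only in that direction, and the counts are no support. The summed level of the list was 2.78, 7.49, 1.83 and 14.2 in IC-B-1, 4.61, 8.82, 2.23 and 8.47 in IC-B-2, and 3.71, 3.92, 1.75 and 5.93 in IC-A. In principal cells it was 4.65, 13.7, 3.22 and 15.5. Mouse Klf6, the endogenous counterpart of the transgene, was at 0.265, 0.612, 0.338 and 0.482 in IC-B-1 and 0.380, 1.10, 0.505 and 0.999 in IC-B-2. It was not called, and passed the filter only in IC-B-2.

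Targets of p53, the transcription factor of the DNA damage response, included Btg2, Trp53inp1 and Mdm2 among the genes higher with AAI. Of 30 targets in the table, 8 passed in IC-B-1 with 2 called higher (Btg2 and Trp53inp1), and 8 in IC-B-2 with 1 called higher (Mdm2), beside the same shares of all genes. The filter limits these counts likewise, since Btg2 in the control pair of IC-B-1 passed through the AAI mouse. Btg2, an antiproliferative gene, went from 0.382 to 1.92 and from 0.502 to 3.33 in IC-B-1. Mdm2, the ubiquitin ligase of p53, went from 0.521 to 2.10 and from 0.975 to 2.20 in IC-B-2 and from 0.882 to 1.81 and 1.01 to 1.29 in IC-B-1. In the mean of the 20 other clusters it went from 0.953 to 3.39 and from 0.748 to 3.35. The summed p53 list was 7.50, 13.4, 6.63 and 13.8 in IC-B-1 and 8.54, 13.2, 8.96 and 16.5 in IC-B-2. It was 6.30, 11, 6.55 and 11.6 in IC-A and 4.88, 11, 6.79 and 14.4 in principal cells.

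The largest changes of IC-B-2 with AAI were in Hs3st5, Abr and Alcam. Hs3st5, a heparan sulfate sulfotransferase (chr10:36506590-36834397), went from 2.03 to 8.72 and from 0.187 to 3.20 in IC-B-2 and was at most 0.0955 in IC-B-1 and IC-A. Abr, a regulator of small GTPases, went from 4.98 to 0.194 and from 4.24 to 0.257. In IC-B-1 the same gene was at 4.66, 1.51, 2.33 and 2.44, and in IC-A at 5.96, 2.35, 4.17 and 2.26. Alcam, a cell adhesion molecule (chr16:52248996-52453081), went from 6.41 to 1.00 and from 8.44 to 0.644 in IC-B-2. It was at 4.57, 4.43, 6.19 and 4.10 in IC-B-1 and at 9.90 to 12.4 in IC-A. Ptbp3 and Rgs2 were higher with AAI, Rgs2 in both clusters, where it was at 1.24, 2.55, 0.680 and 2.22 in IC-B-1 and at 1.22, 3.10, 0.170 and 2.06 in IC-B-2. Plxna2 was also higher in both, at 0.613, 1.67, 0.265 and 1.35, and at 0.904, 2.72, 0.291 and 2.84. Zfp981, a zinc finger gene, was at 0 without AAI in IC-B-2 and at 2.26 and 1.13 with it. It was also higher with AAI in IC-A (0 to 3.35 and 0 to 1.45) and in the other clusters (0.0233 to 1.51 and 0.0254 to 0.743).

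**Figure D4:**
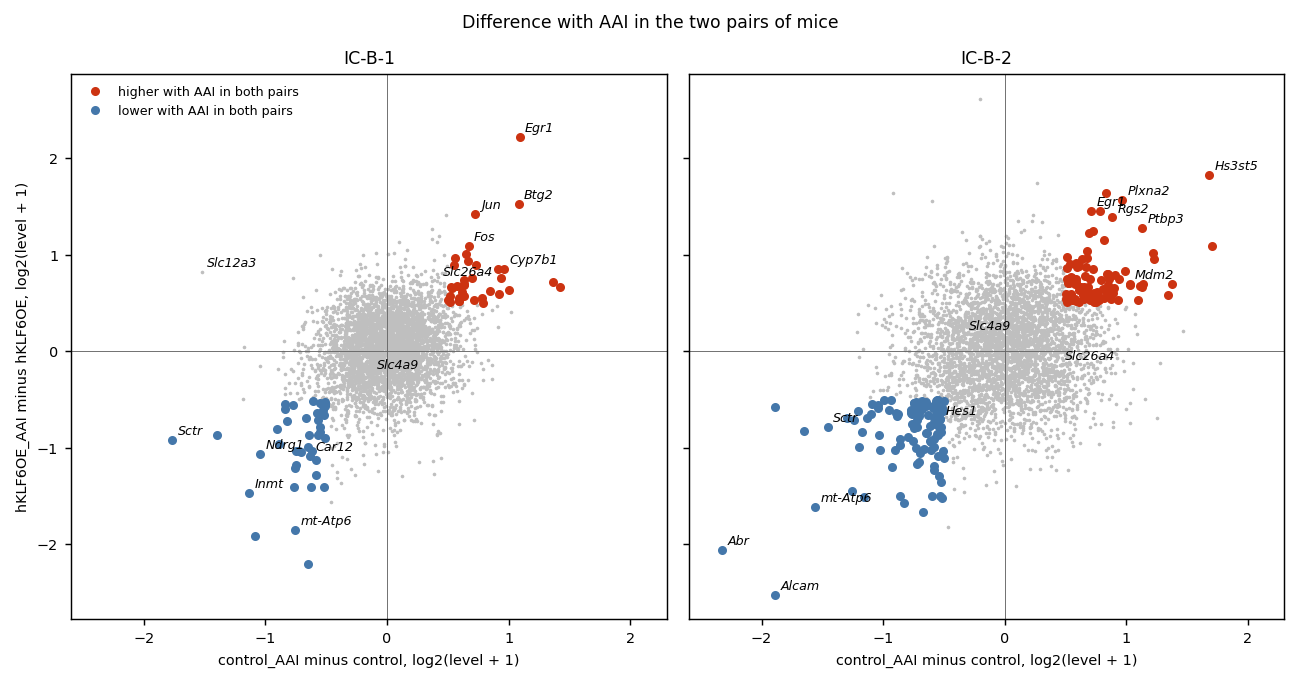
Difference of log2(level + 1) with AAI in the control pair (horizontal) and the hKLF6OE pair (vertical), 1 point per passing gene, in IC-B-1 (left) and IC-B-2 (right). Red and blue points are genes called higher (35 and 88) and lower (42 and 107) in both pairs; Egr1, Btg2 and Jun lead IC-B-1 upward, and Abr and Alcam lead IC-B-2 downward.

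Proximal tubule and mitochondrially encoded transcripts were among the genes lower with AAI. Inmt, Nat8f1, Ndrg1, Mfsd4b5, Cndp2 and Ass1 led the lower genes of IC-B-1, and each was also lower with AAI averaged over the 20 other clusters. Of the 15 proximal tubule markers, all of which passed, 3 were called lower in IC-B-1 and 4 in IC-B-2, beside 1.03% and 2.69% of all passing genes. Cyp7b1 was called higher in IC-B-1, as was the sulfate transporter Slc13a1, which is outside this list and differed by 0.94 and 0.76. Of the 15 markers, 5 and 3 were above 0 in the control and hKLF6OE pairs of IC-B-1. In IC-B-2 they were 3 and 4. The summed level of these markers was 131.1, 102.1, 139.5 and 66.7 in IC-B-1 and 101.1, 69.9, 109.3 and 53.6 in IC-B-2. It was 134.2, 89.5, 161.7 and 74.1 in IC-A and 146.7, 98.3, 160.1 and 78.2 in principal cells, so that it was lower with AAI in each of the 4 clusters. Of 11 mitochondrially encoded genes that passed, 7 were called lower in each type B cluster, beside the same shares. Their sum over 13 genes was 202.8, 134.8, 289.7 and 126.5 in IC-B-1 and 188.2, 91.0, 255.7 and 104.2 in IC-B-2, with 243.2, 143.0, 326.5 and 152.8 in IC-A. Their part in the other differences was not tested. Markers of endothelial cells, podocytes, macrophages and stromal cells summed to at most 2.55 in any type B column.

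Of markers of other nephron segments in IC-B-2, 1 of 6 passing distal markers was called higher with AAI and 1 of 4 thick ascending limb markers lower. Beside these, 2.21% of all genes were higher and 2.69% lower. In IC-B-1 no gene of either list was called, and Slc12a3 differed by -1.52 in the control pair and 0.83 in the hKLF6OE pair. The values that follow are those of IC-B-2. Slc12a3, the sodium-chloride cotransporter of the distal convoluted tubule, was higher with AAI, from 1.68 to 3.77 and from 0.667 to 4.19, and Slc12a1, its counterpart of the thick ascending limb, was lower, from 5.55 to 1.08 and from 8.70 to 4.49. Other members differed, since Cnnm2 of the distal list was at -0.68 in the control pair and Ptger3 of the thick limb list at 0.54. The mean of Slc12a1 over the 20 other clusters was 26.7 to 29.4 in all 4 mice. No gene of the lists of principal cell markers, tubular injury, innate defence, claudins and tight junctions, or the mineralocorticoid and WNK pathway was called with AAI in either cluster. Only 4 principal cell markers passed in each cluster, and 9 and 8 genes of the mineralocorticoid and WNK pathway. Over all genes 0.859% were higher and 1.03% lower in IC-B-1, and 2.21% and 2.69% in IC-B-2. A count of 0 in such short lists is near those shares. Of the heat shock list, Hspa8 was called lower in IC-B-2. Of nuclear oxidative phosphorylation genes, 2 of 52 passing were lower in IC-B-1 and 1 of 46 in IC-B-2, and of cytosolic ribosomal protein genes 0 of 31 and 1 of 21, beside 1.03% and 2.69% of all genes.

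**Figure D5:**
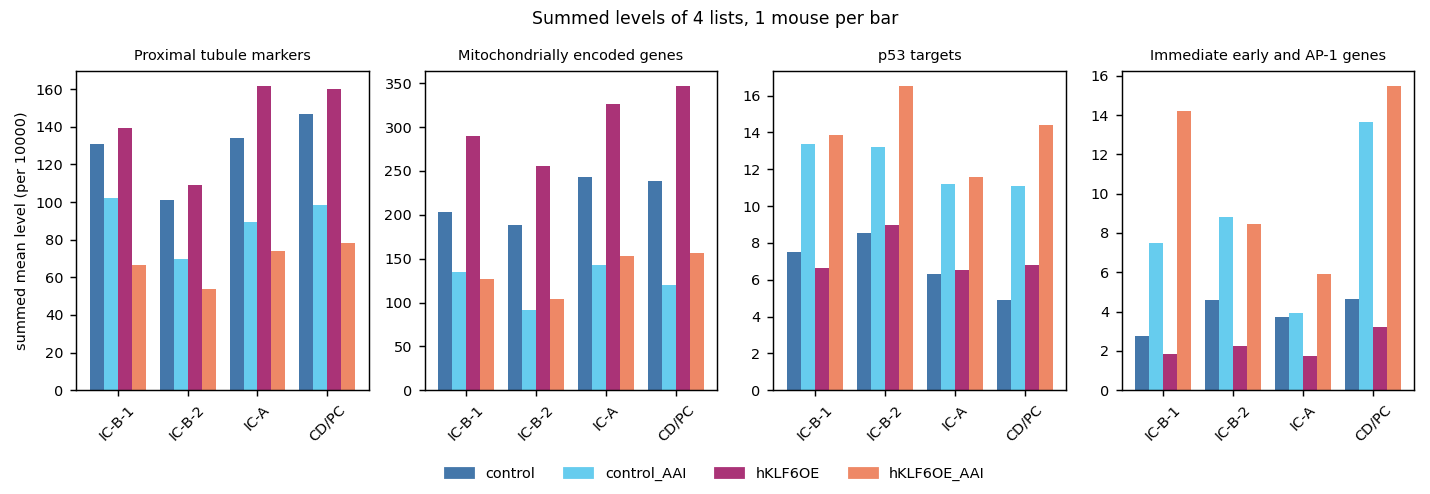
Summed level of 4 gene lists in IC-B-1, IC-B-2, IC-A and principal cells (CD/PC), 1 bar per mouse. Proximal tubule markers and mitochondrially encoded genes are lower, and p53 targets and immediate early genes higher, in each AAI-treated mouse than in the untreated mouse of its genotype, in each of the 4 clusters.

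Genotype was compared in the pair without AAI and in the pair with AAI, which again hold 4 different mice but are the same mice as in the AAI comparison. In IC-B-1, 4 of 3988 passing genes were higher in hKLF6OE in both pairs (0.1%) and 25 were lower (0.627%), while 17 went in opposite directions. After centring these were 5 and 16. In IC-B-2, 31 of 3900 were higher (0.795%) and 47 lower (1.21%), while 94 went in opposite directions, more than the 78 called. No gene of the 3 intercalated cell lists or of the proton pump list was called by genotype in either cluster. In IC-B-1, 9 type B genes, 5 type A genes, 10 markers of both types and 18 pump genes passed. In IC-B-2 these were 8, 4, 10 and 19. A count of 0 in such short lists is near the shares of all genes. Of 13 listed mitochondrially encoded genes mt-Nd5 was called higher in IC-B-2, and of 74 listed nuclear oxidative phosphorylation genes Atp5e. Beside these, 0.795% of all passing genes were higher.

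The 4 genes higher in hKLF6OE in IC-B-1 were Bcar3, Acss1, Elovl5 and Lyn. Bcar3, an adaptor of integrin signaling, was at 2.44 and 2.00 in the control mice and at 4.83 and 5.35 in the hKLF6OE mice. Acss1, the mitochondrial acetyl-CoA synthetase, was at 1.89 and 2.51 against 3.53 and 4.67. Neither was called in IC-B-2, where Bcar3 was at 1.44, 1.51, 1.77 and 1.59 and Acss1 at 4.38, 3.11, 2.06 and 2.79. Each of the 10 leading genes lower in hKLF6OE in IC-B-1 had a higher mean level in the 20 other clusters than in IC-B-1 in all 4 mice. Slc13a1, the sulfate transporter, was at 3.26 and 7.16 in the control mice and 1.15 and 2.65 in the hKLF6OE mice, with means over the other clusters of 7.23, 12.3, 4.47 and 11. The endocytic receptor Lrp2, the phosphate transporter Slc34a1 and Keg1 were the 3 of 15 proximal tubule markers called lower, beside 0.627% of all genes. Plcb1, a phospholipase C that is higher in IC-B-2 than IC-B-1, was at 4.30 and 4.77 against 2.33 and 2.63 in IC-B-1.

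None of the 14 passing genes of the proximal tubule list was called by genotype in IC-B-2, beside 0.795% higher and 1.21% lower of all genes. A count of 0 is near those shares. Outside that list, Pck1 differed by 0.83 and 1.00 and Dab2 by -0.97 and -0.73 (pairs without and with AAI), and both were called. Slc12a1 was higher, at 5.55 and 1.08 against 8.70 and 4.49. Sgcd, a sarcoglycan, was at 11.5 and 4.53 in the control mice of IC-B-2 and 3.83 and 1.71 in the hKLF6OE mice. In IC-B-1 it did not exceed 0.254. Hs3st5, named above for AAI, was lower in hKLF6OE in both pairs, at 2.03 against 0.187 and at 8.72 against 3.20. Its 4 levels were therefore lowest in hKLF6OE without AAI and highest in control_AAI. Gcnt1, a glycosyltransferase, was at 2.26 and 2.31 against 0.570 and 0.585. Dnal1, an axonemal dynein light chain, was higher in hKLF6OE, at 4.68 and 3.73 against 7.72 and 7.07, while in IC-B-1 it was at 4.16 to 5.20 in all 4 mice. Several of the leading higher genes, among them Lama2, Igha and Cyp4f17, were at or below 0.0546 in the control mice and at 0.52 to 1.11 in the hKLF6OE mice. With no nuclei numbers, the counting error of such levels could not be given.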

How the data were processed

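Nuclei of 4 mouse kidney cortices (1 per condition) were prepared and sequenced together as 1 technical batch. The authors aligned reads with Cell Ranger to a mouse pre-mRNA reference (mm10), which keeps intronic reads, filtered nuclei by gene number and mitochondrial share, and clustered them in Seurat; doublet removal is not described. The deposited values are a signal: counts scaled to 10000 per nucleus and averaged on a linear scale over the nuclei of 1 cluster and 1 mouse. The averaging function is not stated, and every one of 92 columns sums to 10000. Averages hide the number of nuclei and depth, so counting error could not be given.

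The table held 19632 genes, of which 23 with names turned into dates were dropped, leaving 19609. Differences were taken of log2(level + 1), among genes at 0.5 or more on the higher side, with a threshold of 0.5. No test was made. Some genes of the lists are not reported here. Genes named were members of 25 lists, mouse Klf6 and the 10 called genes with the largest change per direction and comparison, and the 10 genes most like Slc26a4 over all columns. The clusters and lists were chosen with earlier results of these data known. Results were recomputed with a minimum of 2, without a filter, with a pseudocount of 0.1, thresholds of 0.2 and 1, centring on the median, leaving out mitochondrially encoded and ribosomal protein genes, each mouse left out or each pair alone, each type B cluster alone, and the mean of the other clusters. The calling rule was run on simulated columns, all drawn from the control mouse with counting noise only and with large planted changes. It does not show how the rule fares with variation between mice, or near its threshold and minimum. Analyses ran in Python 3.11.15 with pandas 2.3.3 and numpy 2.4.6, and plots were drawn with matplotlib 3.10.9. Gene positions and promoters were taken from RefSeq on GRCm38.p6, a patch of the build that mm10 names.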

Additional observations from a re-analysis of the deposited data

Results flagged for a closer look

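The differences below were 0.5 or more (log2) in one direction in the first pair of mice and in the other direction in the second, among the members of the gene lists reported here. With 1 mouse per condition these differences between pairs were not tested. Over all passing genes such opposite effects numbered 8 for AAI in IC-B-1, 88 for AAI in IC-B-2, 17 for genotype in IC-B-1 and 94 for genotype in IC-B-2, against 77, 195, 29 and 78 genes that differed the same way in both pairs.

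With AAI in IC-B-1, Slc12a3 differed by -1.52 in the control pair and by 0.83 in the hKLF6OE pair. Slc8a1 differed by -0.55 and 1.00. The 4 levels of Slc12a3, the sodium-chloride cotransporter of the distal convoluted tubule, were 5.55, 1.28, 1.13 and 2.76 in IC-B-1, so the control mouse stood apart.

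With AAI in IC-B-2, Cnnm2 differed by -0.68 in the control pair and by 0.75 in the hKLF6OE pair. Ptger3 differed by 0.54 and -0.52. Xpc differed by -0.58 and 0.69.

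By genotype in IC-B-1, Miox differed by 0.62 in the pair without AAI and by -0.93 in the pair with AAI. Slc12a3 differed by -1.62 and 0.72.

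By genotype in IC-B-2, Atp6v0a1 differed by -0.79 in the pair without AAI and by 0.81 in the pair with AAI. Cldn10 differed by 0.54 and -0.63. Cnnm2 differed by -0.89 and 0.54. Egf differed by 0.55 and -0.56. Klhl3 differed by -0.61 and 0.51. Ocln differed by -0.66 and 0.51. Ptger3 differed by 0.53 and -0.53. Rhcg differed by -0.65 and 0.87. Slc8a1 differed by -1.90 and 0.93.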

How the results depend on the processing

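Counts are genes higher and lower, in that order. With a pseudocount of 0.1 they were 149 and 115 (IC-B-1 against IC-B-2), 134 and 137 (type B against IC-A), 206 and 228 (AAI in IC-B-1), 323 and 363 (AAI in IC-B-2), 92 and 184 (genotype in IC-B-1), 221 and 269 (genotype in IC-B-2), 43 and 3561 (type B against the other clusters). With a minimum of 2 they were 35 and 39 (IC-B-1 against IC-B-2), 56 and 42 (type B against IC-A), 20 and 21 (AAI in IC-B-1), 47 and 37 (AAI in IC-B-2), 2 and 14 (genotype in IC-B-1), 10 and 9 (genotype in IC-B-2), 31 and 1210 (type B against the other clusters). With a threshold of 0.2 they were 233 and 186 (IC-B-1 against IC-B-2), 184 and 247 (type B against IC-A), 405 and 323 (AAI in IC-B-1), 515 and 489 (AAI in IC-B-2), 169 and 341 (genotype in IC-B-1), 342 and 446 (genotype in IC-B-2), 53 and 4031 (type B against the other clusters). With a threshold of 1 they were 9 and 24 (IC-B-1 against IC-B-2), 29 and 27 (type B against IC-A), 2 and 3 (AAI in IC-B-1), 4 and 6 (AAI in IC-B-2), 0 and 0 (genotype in IC-B-1), 0 and 3 (genotype in IC-B-2), 18 and 1016 (type B against the other clusters). Centring on the median gave 5 and 16 (genotype in IC-B-1), 117 and 777 (type B against the other clusters). Each pair of mice alone gave 179 and 214 or 357 and 329 (AAI in IC-B-1), 508 and 566 or 728 and 732 (AAI in IC-B-2), 194 and 286 or 141 and 184 (genotype in IC-B-1), 546 and 631 or 456 and 523 (genotype in IC-B-2), since 1 pair is an easier demand than both. Against IC-A, IC-B-1 alone gave 47 and 62, and IC-B-2 alone 118 and 116. Against the mean of the other clusters the type B clusters gave 136 and 240. Leaving out each mouse in turn gave 79 to 90 and 72 to 79 (IC-B-1 against IC-B-2), 98 to 110 and 84 to 94 (type B against IC-A), 42 to 43 and 2549 to 2719 (type B against the other clusters), since fewer mice had to pass. No filter, and leaving out mitochondrially encoded and ribosomal protein genes, kept every count within 1.5 times. Of 1260 values of single genes under an alternative, 1168 stayed on their side of the call, 92 fell below it and none changed direction. Most alternatives were looser than the main setting or used fewer mice, so that a called gene could not be lost. The 1168 are therefore no support. The 92 came from the threshold of 1 (57), the minimum of 2 (33) and IC-B-1 alone (2). With 1 mouse per condition, and no nuclei numbers or depth for each cluster, a called difference of a low gene cannot be told from counting error. Between conditions no paired analysis was possible, because the labels give no replicate numbers shared between conditions. Between clusters the differences were taken within each mouse. No result comes from a test. An additive fit over the 4 mice, which would leave 1 residual degree of freedom, was not made.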
